A study of Homo sapiens with 6 samples.

Results

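The Notch pathway genes examined were 10 of the 58302 genes listed for SK-N-BE (2) cells: the receptors NOTCH1, NOTCH2 and NOTCH3, the ligands DLL1, DLL3, JAG1 and JAG2, and the transcription factors HES1, HES6 and HEY1. They were taken by name and matched by Ensembl identifier to GENCODE release 29. This line was established from a human neuroblastoma. RNA was measured in 3 samples transfected with a negative control siRNA (siNC, labelled NC) and in 3 samples transfected with siRNA against Prp19 (siPrp19), a protein of the spliceosome encoded by PRPF19. According to the labels the cells were transfected for 72 h, whereas the study's methods give a shorter time for RNA sequencing, and the difference was not resolved here. Both groups are the same unmodified line grown in MEM/F12 with fetal bovine serum. All samples come from 1 cell line, so the groups differ in the siRNA alone as far as the labels say. Each group held replicates 1, 2 and 3, which the methods call biological replicates without saying how the cultures were separated. The p-values measure the spread between these samples, which the model fits pool in part over genes. In bulk RNA, fewer cells expressing a gene and less RNA per cell cannot be told apart.

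In Notch signalling, a ligand of the Delta or Jagged family on one cell binds a NOTCH receptor on its neighbour. The receptor is then cut, first by an ADAM protease and next by gamma-secretase, and its freed intracellular domain enters the nucleus, where it joins the DNA-binding protein RBPJ and a Mastermind co-activator. Several HES and HEY genes, HES1 and HEY1 among them, are classic targets of this complex. Their products are basic helix-loop-helix repressors that hold back proneural factors and so delay neuronal differentiation. Neuroblastoma is a childhood tumour of sympathetic nerve precursors, and in the developing nervous system Notch signalling takes part in the choice between neuronal and other fates.

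The knockdown was visible in every pair. Levels are in FPKM, fragments per kilobase of exon scaled between libraries. PRPF19 stood at 53.1, 53.1 and 64.9 FPKM in siNC replicates 1 to 3 and at 21.8, 28.5 and 33.6 FPKM in those of siPrp19. The groups did not overlap, and the mean with siPrp19 was 49.0% of that with siNC. On the log2(FPKM + 0.1) scale the difference was −1.04 (SE 0.19, n = 3 and 3), with a limma adjusted p of 0.9999 without a block for replicate number and of 0.1899 with it. With voom on recovered reads and the block the adjusted p was 1.569e-12. Recovered reads on genes ranged from 19058781 to 21943936 with siNC and from 22273026 to 24181789 with siPrp19. All 12 adrenergic neuroblastoma markers examined had a mean of at least 1 FPKM, whereas 0 of 5 endothelial and 0 of 6 leukocyte markers did and SOX10, a defining Schwann cell marker, was listed at 0. Fibroblast markers, of which 5 of 6 had a mean of at least 1 FPKM, summed to 101.2 to 121 FPKM with siNC and to 93.7 to 119.5 FPKM with siPrp19.

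The promoters of HES1 and HES6 are shown because these genes differ in the words that RBPJ and the helix-loop-helix factors are known to bind. The windows searched are the 250 bases before the start that RefSeq gives each gene on GRCh38.p14, and the sequences are written 5′ to 3′ on the strand of the gene, up to the first base that GENCODE release 29 places in an exon. The HES1 stretch is chr3:194135898-194136144 on the plus strand, with the RBPJ word TGGGAA in capitals, 84 and 70 bases before the RefSeq start. The HES6 stretch is chr2:238240125-238240288 on the minus strand, with an E-box, CANNTG, in capitals. GENCODE also has a HES6 transcript with a first exon farther upstream, at 238240392 to 238240662, so that the HES6 stretch lies before the RefSeq start but inside the GENCODE gene, in an intron of that transcript.
HES1: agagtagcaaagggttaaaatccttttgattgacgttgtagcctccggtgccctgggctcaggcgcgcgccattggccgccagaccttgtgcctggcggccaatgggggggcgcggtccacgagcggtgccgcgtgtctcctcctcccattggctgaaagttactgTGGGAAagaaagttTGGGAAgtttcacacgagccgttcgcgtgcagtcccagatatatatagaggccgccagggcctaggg
HES6: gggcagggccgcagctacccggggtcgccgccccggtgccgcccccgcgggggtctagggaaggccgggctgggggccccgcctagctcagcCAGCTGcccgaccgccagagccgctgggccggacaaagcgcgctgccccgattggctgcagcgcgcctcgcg
Promoters of 7 of the 10 genes were matched and searched on both strands for TGGGAA, for the E-box CANNTG, which proneural factors bind, and for the N-box CACNAG, which HES proteins bind. The letters of the E-box and the N-box can overlap. HES1 held 2 RBPJ words, which 2.90% of all 35116 RefSeq promoters of this length did, while 20.8% held at least 1. It also held 3 N-boxes, against 6.32% of promoters with at least 2, and no E-box. HES6 held 1 E-box and JAG2 held 2, and 61.8% of all promoters held at least 1. NOTCH3 held 1 N-box, as did 32.0% of all promoters with at least 1, and the windows of NOTCH1, NOTCH2 and JAG1 held none of the words. A match is a description of these letters and not a bound site.

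In siNC cells HEY1 was the most abundant of the 10 genes and DLL1 the least. Since FPKM is given per length of exon, levels of different genes can be set side by side on this scale, though roughly. For most genes the length counts all annotated exons, which can exceed the transcript expressed and so lower the value. Mean levels in siNC (n = 3) followed, from high to low, the order HEY1, NOTCH3, HES6, HES1, JAG2, DLL3, NOTCH2, NOTCH1, JAG1 and DLL1. The ranges of the 3 samples overlapped between the neighbours NOTCH3 and HES6, HES6 and HES1, DLL3 and NOTCH2, and NOTCH1 and JAG1, so that their order is not set beyond their spread. They did not overlap between HEY1 and NOTCH3, HES1 and JAG2, JAG2 and DLL3, NOTCH2 and NOTCH1, or JAG1 and DLL1. Tests were run on the 14462 genes whose mean across all samples reached 1 FPKM, among which the percentile was 90.4 for HEY1, 65.4 for NOTCH3 and 4.51 for NOTCH1. DLL1 and JAG1 had means under 1 FPKM and were not tested among them.

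NOTCH3 made up most of the receptor RNA. Of the summed FPKM of NOTCH1 to NOTCH4, it contributed 61.3% with siNC and 61.1% with siPrp19 (means of 3 samples), ahead of NOTCH2 with 25.0% and 24.5%. NOTCH1 contributed 7.18% and 7.58%, and NOTCH4 6.56% and 6.84%. GPSM3, which overlaps NOTCH4 on the same strand, was at 1.47 to 3.33 FPKM, and reads in the overlap cannot be told apart. JAG2 and DLL3 led the ligands, with 53.7% and 32.1% of the summed level of DLL1, DLL3, DLL4, JAG1 and JAG2 in siNC cells and 51.7% and 34.6% in siPrp19 cells. Over the HES and HEY family, HEY1 contributed 58.1% with siNC and 59.8% with siPrp19, HES6 17.6% and 15.6%, and HES1 15.7% and 15.7%. HES5, the HES gene best known in neural progenitors, was listed at 0 in all 3 siNC samples. The summed level was 15.6 FPKM with siNC and 14.6 FPKM with siPrp19 over the 4 receptors, 12.3 and 12.3 FPKM over the 5 ligands, and 51.0 and 51.3 FPKM over the 10 HES and HEY genes.

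**Figure D1:**
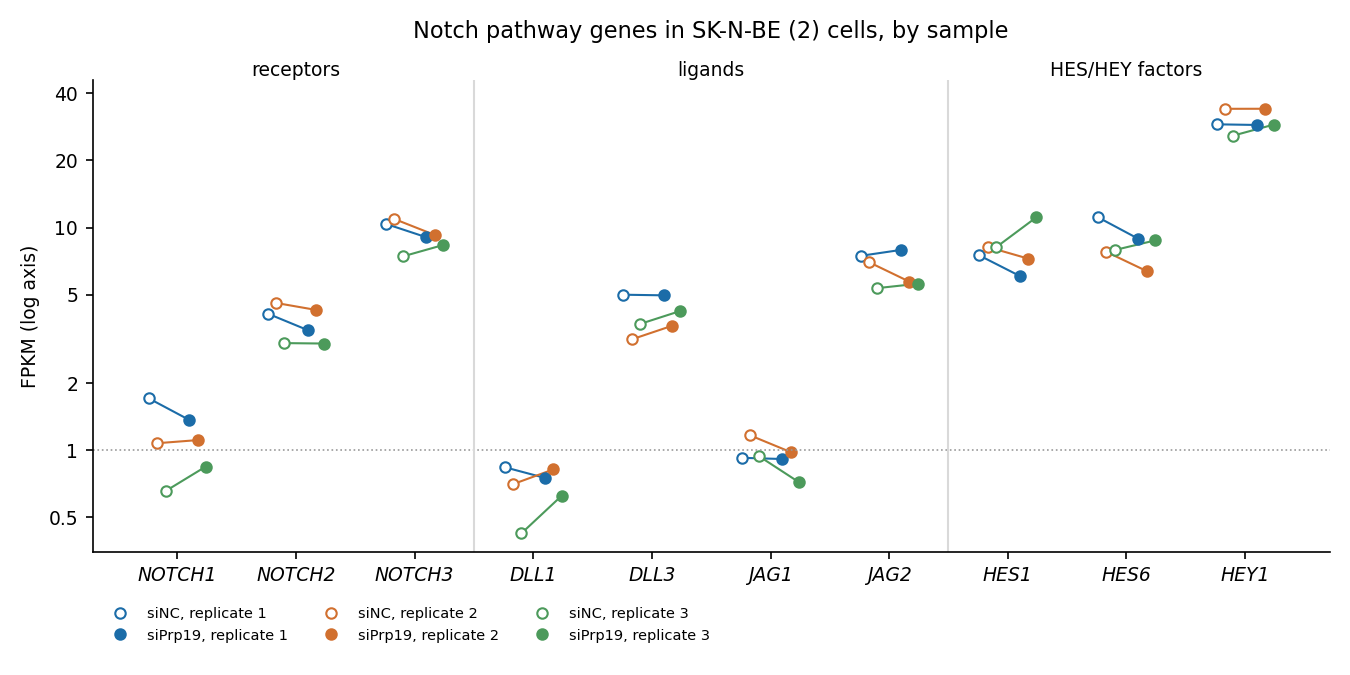
FPKM on a log axis of the 3 receptors, 4 ligands and 3 HES/HEY factors in each of the 6 samples; open points are siNC, filled points are siPrp19, and a line joins samples of the same replicate number, with a dotted line at 1 FPKM. The filled and open points of every gene overlap, and HEY1 stands above the others at 25.9 to 34.1 FPKM.

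The design asks whether lowering Prp19 changed these genes. None of the 10 differed between siPrp19 and siNC beyond the spread between replicates. The groups overlapped for all 10, while among all tested genes 2.84% did not overlap with siPrp19 lower and 2.77% with siPrp19 higher. By limma on log2(FPKM + 0.1), 0 of the 8 tested genes passed an adjusted p under 0.05, where 0% of all tested genes did, and 0 had an unadjusted p under 0.05, where 1.56% did. With a block for replicate number, 0 of 8 had an unadjusted p under 0.05, against 8.77% of all tested genes that were lower and 6.89% that were higher. Exact permutation tests of the 10 genes, two-sided, gave p from 0.4 to 1, where 3 against 3 samples cannot go below 0.1. The median of the 8 log2 fold changes was −0.03 (range −0.15 to 0.13), beside 0.00 over all tested genes. Their median absolute log2 fold change was 0.07, beside 0.10 over all tested genes.

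The receptors, single-pass membrane proteins that become transcription regulators once cut, are taken first. NOTCH3 (ENSG00000074181, chromosome 19, 15159038 to 15200981, minus strand, GRCh38) was at 10.4, 10.9 and 7.42 FPKM in siNC replicates 1 to 3 and at 9.04, 9.26 and 8.34 FPKM in siPrp19 replicates 1 to 3. The siPrp19 samples all lay within the range of the siNC samples. The means were 9.57 ± 1.88 and 8.88 ± 0.478 FPKM (SD, n = 3 each), and the log2 fold change was −0.09 (95% interval with the block −0.34 to 0.16, adjusted p 0.9999 without it). NOTCH2 (ENSG00000134250, chromosome 1, 119911553 to 120069626, minus strand) was at 4.11, 4.58 and 3.03 FPKM with siNC and at 3.46, 4.26 and 3.01 FPKM with siPrp19. It was lower with siPrp19 in all 3 pairs, but the third pair was nearly level. The mean was 91.6% of that with siNC and the log2 fold change −0.12 (95% interval with the block −0.32 to 0.09). NOTCH2NLA, a near-identical partial copy of NOTCH2, was listed at no more than 0.0471 FPKM in any sample, and NOTCH2P1 at 0. NOTCH1 (ENSG00000148400, chromosome 9, 136494433 to 136545786, minus strand) was at 1.71, 1.07 and 0.655 FPKM with siNC and at 1.37, 1.11 and 0.845 FPKM with siPrp19. It was highest in replicate 1 and lowest in replicate 3 of either group, and the siPrp19 values again lay inside the siNC range. Its log2 fold change was 0.02 with a wide 95% interval of −0.59 to 0.63 with the block, so that changes of that size were not detectable.

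Among the ligands, JAG2 (ENSG00000184916, chromosome 14, 105140981 to 105168824, minus strand), a Jagged ligand that activates receptors on neighbouring cells, was at 7.46, 6.99 and 5.34 FPKM in siNC and 7.93, 5.71 and 5.59 FPKM in siPrp19 replicates 1 to 3. The means were 6.60 ± 1.11 and 6.41 ± 1.32 FPKM (SD, n = 3 each), and the log2 fold change was −0.04 (95% interval with the block −0.29 to 0.20). DLL3 (ENSG00000090932, chromosome 19, 39498895 to 39508481, plus strand), an unusual Delta ligand that stays largely inside the cell and dampens signalling, was at 4.99, 3.15 and 3.69 FPKM with siNC and at 4.96, 3.62 and 4.22 FPKM with siPrp19. Replicates 2 and 3 were higher with siPrp19 and replicate 1 was level. Its log2 fold change of 0.13 (95% interval with the block −0.07 to 0.33) was the highest of the 8 tested genes. JAG1 (ENSG00000101384, chromosome 20, 10637684 to 10673999, minus strand), the other Jagged ligand, was at 0.924, 1.16 and 0.942 FPKM with siNC and at 0.913, 0.981 and 0.718 FPKM with siPrp19. It was lower in all 3 pairs, with a mean at 86.2% of siNC, but the groups overlapped and the exact p was 0.4. With no filter on low values its log2 fold change was −0.20 (95% interval with the block −0.68 to 0.29, adjusted p 0.9989 without it). DLL1 (ENSG00000198719, chromosome 6, 170282206 to 170306565, minus strand), a Delta ligand that activates receptors in trans, was at 0.838, 0.704 and 0.423 FPKM with siNC and at 0.750, 0.820 and 0.625 FPKM with siPrp19. These values rest on 27 to 59 reads a sample. The exact p was 0.7, and with no filter the log2 fold change was 0.17 (95% interval with the block −0.48 to 0.83). FAM120B, which overlaps DLL1 on the opposite strand, was at 7.29 to 8.11 FPKM, and reads in the overlap cannot be told apart without strand.

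Of the HES and HEY factors, HES1 and HEY1 are classic targets of the pathway. Whether their levels follow its activity in these cells was not tested. HES1 (ENSG00000114315, chromosome 3, 194136145 to 194138732, plus strand), the repressor whose promoter is shown above, was at 7.49, 8.18 and 8.14 FPKM in siNC and 6.06, 7.25 and 11.1 FPKM in siPrp19 replicates 1 to 3. The siNC samples lay close together, whereas the siPrp19 samples held both the lowest and the highest value of all 6. The means were 7.94 ± 0.386 and 8.14 ± 2.64 FPKM (SD, n = 3 each), and the changes in pairs 1, 2 and 3 were −0.30, −0.17 and 0.44 on the log2 scale. The log2 fold change was −0.01 (95% interval with the block −0.41 to 0.39, exact p 1). HES6 (ENSG00000144485, chromosome 2, 238238267 to 238240662, minus strand), a family member that counteracts HES1 and favours neuronal differentiation, was at 11.1, 7.78 and 7.92 FPKM with siNC and at 8.90, 6.37 and 8.75 FPKM with siPrp19. It was lower in pairs 1 and 2 by 0.32 and 0.28 and higher in pair 3 by 0.14 on the log2 scale. Its log2 fold change of −0.15 (95% interval with the block −0.43 to 0.12) was the lowest of the 8 tested genes, and the groups overlapped. HEY1 (ENSG00000164683, chromosome 8, minus strand), a repressor of the HES-related HEY branch, was at 29.1, 34.1 and 25.9 FPKM with siNC and at 28.9, 34.1 and 29.0 FPKM with siPrp19. Pairs 1 and 2 were level and pair 3 was higher by 0.16 on the log2 scale. The log2 fold change was 0.05 with the narrowest 95% interval of the 8, −0.09 to 0.19 with the block.

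Replicate numbers separated the samples more than the siRNA did for most of these genes. The range of the mean log2 level over the 3 replicate numbers was larger than every change within a pair for 9 of the 10, JAG1 being the exception, and for 72.5% of all tested genes. For NOTCH1 that range was 0.95 and the largest change within a pair 0.32. Of the 8 tested genes, 1 (NOTCH2) was lower with siPrp19 in 3 of 3 pairs, where 21.3% of all tested genes were, and 0 were higher in 3 of 3, where 19.2% were. Pair 3 gave the highest change of the 3 pairs for 7 of the 10 genes (NOTCH1, NOTCH2, NOTCH3, DLL1, HES1, HES6 and HEY1), and for 38.4% of all tested genes. NOTCH3, HES1 and HES6 were lower in pairs 1 and 2 and higher in pair 3, as were 13.0% of all tested genes. Without replicate 3 and with the block, these same 3 of the 8 tested genes had an unadjusted limma p under 0.05, where 8.48% of all tested genes did and were lower. Since the 3 were named for going the other way in pair 3, leaving out that pair favours them by construction. The log2 fold changes were then −0.22 for NOTCH3, −0.24 for HES1 and −0.30 for HES6, with limma adjusted p of 0.2968, 0.314 and 0.2591. In voom with the block and without replicate 3, 1 of the 8, NOTCH3, passed with an adjusted p of 0.02959, where 9.44% of all genes passed. The p-values of that fit rest on a spread pooled over genes, since few samples remain with a pair left out.

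**Figure D2:**
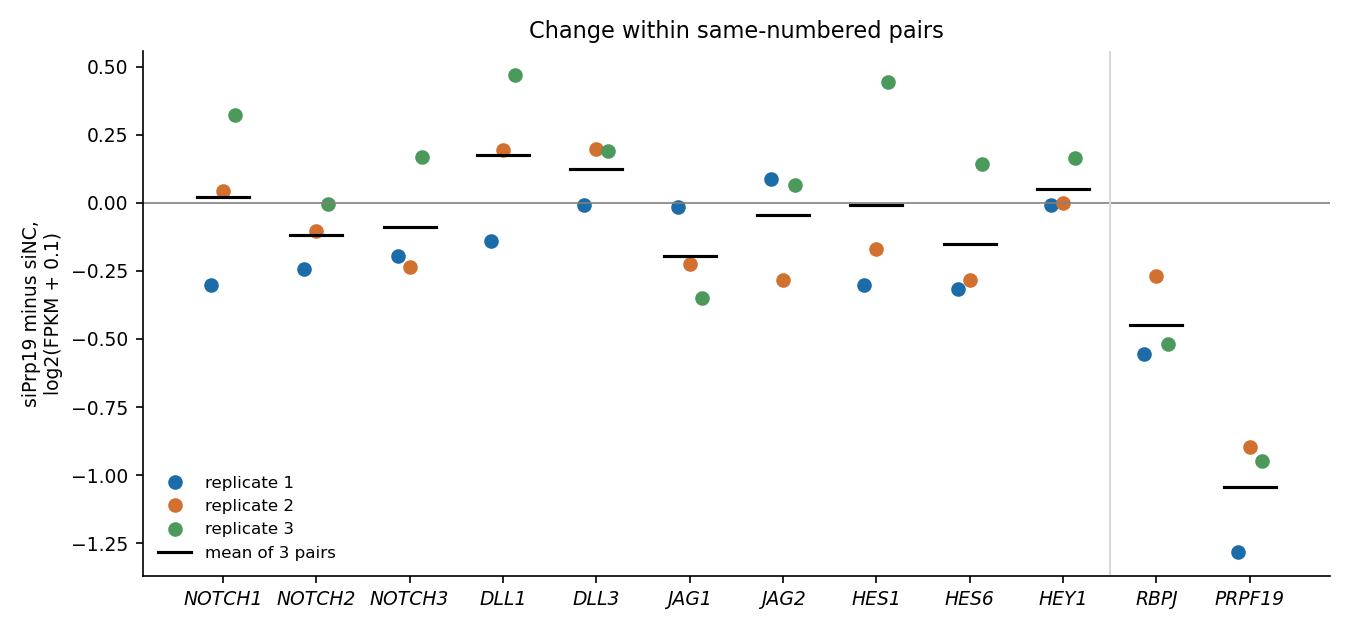
Change on the log2(FPKM + 0.1) scale, siPrp19 minus siNC, within each same-numbered pair (points) and its mean (bars), for the 10 genes and, at the right, RBPJ and PRPF19. The points of HES1 run from −0.30 in pair 1 to 0.44 in pair 3, whereas all 3 points of RBPJ and PRPF19 lie below 0.

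The profiles of the genes over the 6 samples were compared by the root-mean-square distance of their centred log2 levels, as a description. NOTCH2 and NOTCH3 were each other's nearest gene among the 8, at 0.11, with 531 and 262 other genes nearer to NOTCH2 and to NOTCH3. DLL3 and HES6 were likewise nearest to each other, at 0.17. HES1 was least like the rest, with HEY1 nearest at 0.31 and 6043 other genes closer. Over all tested genes, the nearest profile was that of TMEM59 for NOTCH2 (0.019), NOL4L for NOTCH3 (0.031), COL6A2 for HEY1 (0.021), SERPINF1 for HES6 (0.046), KTI12 for HES1 (0.062), UMAD1 for JAG2 (0.048), ENOX1 for DLL3 (0.059) and RN7SL381P for NOTCH1 (0.11).

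Around the 10 genes, the rest of the pathway was read in 91 further genes, of which 69 were tested. By limma without the block, 0 of 69 passed an adjusted p under 0.05 and 4 (TLE1, CDK8, INSM1 and TCF4) had an unadjusted p under 0.05, where 1.56% of all tested genes did. By limma with the block, 0 of 69 passed an adjusted p under 0.05, as did 0% of all tested genes, and the lowest was 0.1899 for RBPJ. With voom on recovered reads and the block, 13 of 69 passed an adjusted p under 0.05, 7 lower and 6 higher with siPrp19, where 4.60% of all genes in that fit were lower and 2.97% higher. That count was 3 without replicate 1, where 1.94% of all genes passed, 7 without replicate 2, where 4.39% did, and 15 without replicate 3, where 9.44% did. RBPJ and TCF4 passed with each replicate left out in turn. Few samples remain with a pair left out, so these voom p-values rest on a spread pooled over genes. FURIN did not pass without replicate 3, KAT2A, CTBP2 and TLE1 without replicate 1, NUMB without replicate 1 or 3, and LFNG, TLE5, CDK8, ASCL2, INSM1 and TCF3 without replicate 1 or 2. None of the 8 tested receptors, ligands and HES/HEY factors was among the genes called by voom with the block on all samples. DLL1 and JAG1 were not in that fit. The sizes below are limma log2 fold changes, and each adjusted p named as voom is from the fit with the block; by limma with the block none of these genes had an adjusted p under 0.05.

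In the nuclear complex, RBPJ, the DNA-binding protein through which all NOTCH receptors act, differed most. Its level was 35.3, 47.7 and 19.0 FPKM in siNC and 23.9, 39.6 and 13.2 FPKM in siPrp19 replicates 1 to 3. It was lower in every pair although the groups overlapped, since the replicates differed from each other more than the siRNAs did. The mean was 75.3% of siNC, and the log2 fold change was −0.45 (SE 0.48 without the block and 0.07 with it, 95% interval with the block −0.63 to −0.26, voom adjusted p 3.755e-06). Without the block the log2 fold change was −0.04 without siPrp19 replicate 3, −0.15 without siNC replicate 2, −0.82 without siNC replicate 3 and −0.83 without siPrp19 replicate 2, while with the block it was −0.39 to −0.54 with a pair left out. KAT2A, a histone acetyltransferase recruited as a co-activator, was at 16.4, 15.4 and 14.9 FPKM with siNC and higher, at 19.2, 17.6 and 18.7 FPKM, with siPrp19 in groups that did not overlap (log2 fold change 0.25, voom adjusted p 0.01108). The Mastermind genes MAML1, MAML2 and MAML3 were not called, and of the 8 tested genes in this list 1 was called lower and 1 higher.

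Among co-repressors and turnover factors, 1 of 17 tested genes was called lower and 3 higher. TLE1, a Groucho co-repressor that HES proteins recruit, was at 15.4, 15.2 and 14.4 FPKM with siNC and 19.6, 18.0 and 18.2 FPKM with siPrp19. CDK8, a kinase that marks the intracellular domain of NOTCH for turnover, was at 7.94, 7.93 and 7.86 FPKM with siNC and 10.4, 10.6 and 9.32 FPKM with siPrp19. Neither gene's groups overlapped, and the log2 fold changes were 0.30 (voom adjusted p 0.001006) and 0.34 (voom adjusted p 0.004835). TLE5, a short Groucho-related protein named AES in GENCODE release 29, was also higher without overlap (0.21, voom adjusted p 0.01059). CTBP2, a co-repressor, was lower in each pair (−0.25, voom adjusted p 0.005158, −0.15 without siNC replicate 3 or siPrp19 replicate 1), with its pseudogene CTBP2P4 at up to 1.76 FPKM. ZRANB1, which overlaps CTBP2 on the opposite strand, was at 4.513 to 7.865 FPKM. HDAC1 and TLE3 had log2 fold changes of 0.17 and 0.18 with unadjusted p of 0.03307 and 0.04048 with the block, and were not called by voom.

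Receptor maturation held 6 tested genes, 1 called lower and 1 higher. LFNG, the Fringe glycosyltransferase that changes which ligands a receptor answers to, was at 5.45, 4.34 and 3.30 FPKM with siNC and 4.04, 2.15 and 3.14 FPKM with siPrp19 (log2 fold change −0.49, voom adjusted p 0.02053). Most of that difference came from pairs 1 and 2, and the log2 fold change was −0.25 with the block and without replicate 2. FURIN, the protease that makes the first cut of a maturing receptor, was higher in each pair (0.28, voom adjusted p 0.006855), with 0.07 without siPrp19 replicate 3 and 0.44 without siPrp19 replicate 1. POGLUT1, which adds O-glucose to receptors, had a log2 fold change of −0.23 and a voom adjusted p of 0.06292. In ligand endocytosis and receptor trafficking, 1 of 12 tested genes was called, NUMB, an adaptor that antagonises NOTCH. It was at 7.32, 8.20 and 7.89 FPKM with siNC and 6.14, 7.50 and 6.47 FPKM with siPrp19 (−0.22, voom adjusted p 0.02495). NEURL1B, a ubiquitin ligase for ligands, was not called (0.27, voom adjusted p 0.08679). The pseudogene AC027309.2, which overlaps NEURL1B on the opposite strand, was at 10.98 to 17.22 FPKM. None of the 8 tested genes of receptor cleavage was called, and PSEN2 and PSENEN, both of gamma-secretase, had the largest log2 fold changes at −0.15 and 0.12.

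Among other receptors and ligands, 0 of 4 tested genes were called. DLK2, a Delta-like protein that lacks the domain for receptor activation, was at 2.17, 2.69 and 0.814 FPKM with siNC and 3.42, 3.16 and 1.30 FPKM with siPrp19 (log2 fold change 0.49, unadjusted p 0.01526 with the block, voom adjusted p 0.0807). With a library left out the log2 fold change of DLK2 ran from 0.0024 without siNC replicate 3 to 0.92 without siPrp19 replicate 3. ABCC10, which overlaps DLK2 on the opposite strand, was at 2.40 to 5.00 FPKM. CNTN1, a proposed non-canonical ligand, had a log2 fold change of 0.15. Of the other HES/HEY genes and direct targets, 3 of 8 were tested and 0 called. NRARP, a direct target and feedback inhibitor, was at 4.64, 4.68 and 6.03 FPKM with siNC and 6.27, 5.14 and 7.26 FPKM with siPrp19. It was higher in each pair, with a log2 fold change of 0.27 and a voom adjusted p of 0.1616. HES4 was at 2.01, 2.13 and 1.40 FPKM with siNC and 1.26, 1.42 and 2.31 FPKM with siPrp19, lower in pairs 1 and 2 and higher in pair 3 as HES1 and HES6 were. HES7, the other HES gene tested in this list, did not share that order. Its changes in pairs 1, 2 and 3 were 0.23, −0.07 and 0.26 on the log2 scale.

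The last list held neurogenic factors (ASCL2, NEUROD1, INSM1 and MYT1), the E proteins TCF3, TCF4 and TCF12 that proneural factors pair with, and the inhibitors ID1 to ID4, with 3 genes called lower and 1 called higher of 11 tested. INSM1, a zinc-finger factor of neuroendocrine cells, was at 2.67, 3.13 and 2.70 FPKM with siNC and 1.73, 1.92 and 2.14 FPKM with siPrp19, without overlap (−0.53, voom adjusted p 0.02002). TCF4, an E protein that pairs with proneural factors, was at 11.4, 12.2 and 11.8 FPKM with siNC and 9.57, 10.3 and 8.53 FPKM with siPrp19, without overlap (−0.32, voom adjusted p 2.445e-04). ASCL2, a helix-loop-helix factor, was at 4.38, 4.57 and 0.764 FPKM with siNC and 2.59, 3.06 and 0.501 FPKM with siPrp19. It was lower in each pair, but replicate 3 stood far below the others in either group and the groups overlapped (−0.61, SE 0.87 without the block, voom adjusted p 0.01635). Without the block its log2 fold change ran from −1.41 without siNC replicate 3 to 0.15 without siPrp19 replicate 3. The E protein TCF3 was called higher (0.17, voom adjusted p 0.04605), with 0.10 in voom without replicate 1 and 0.27 without siNC replicate 3, whereas TCF12 (−0.14) and MYT1 (0.18) had voom adjusted p of 0.0915 and 0.09377.

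**Figure D3:**
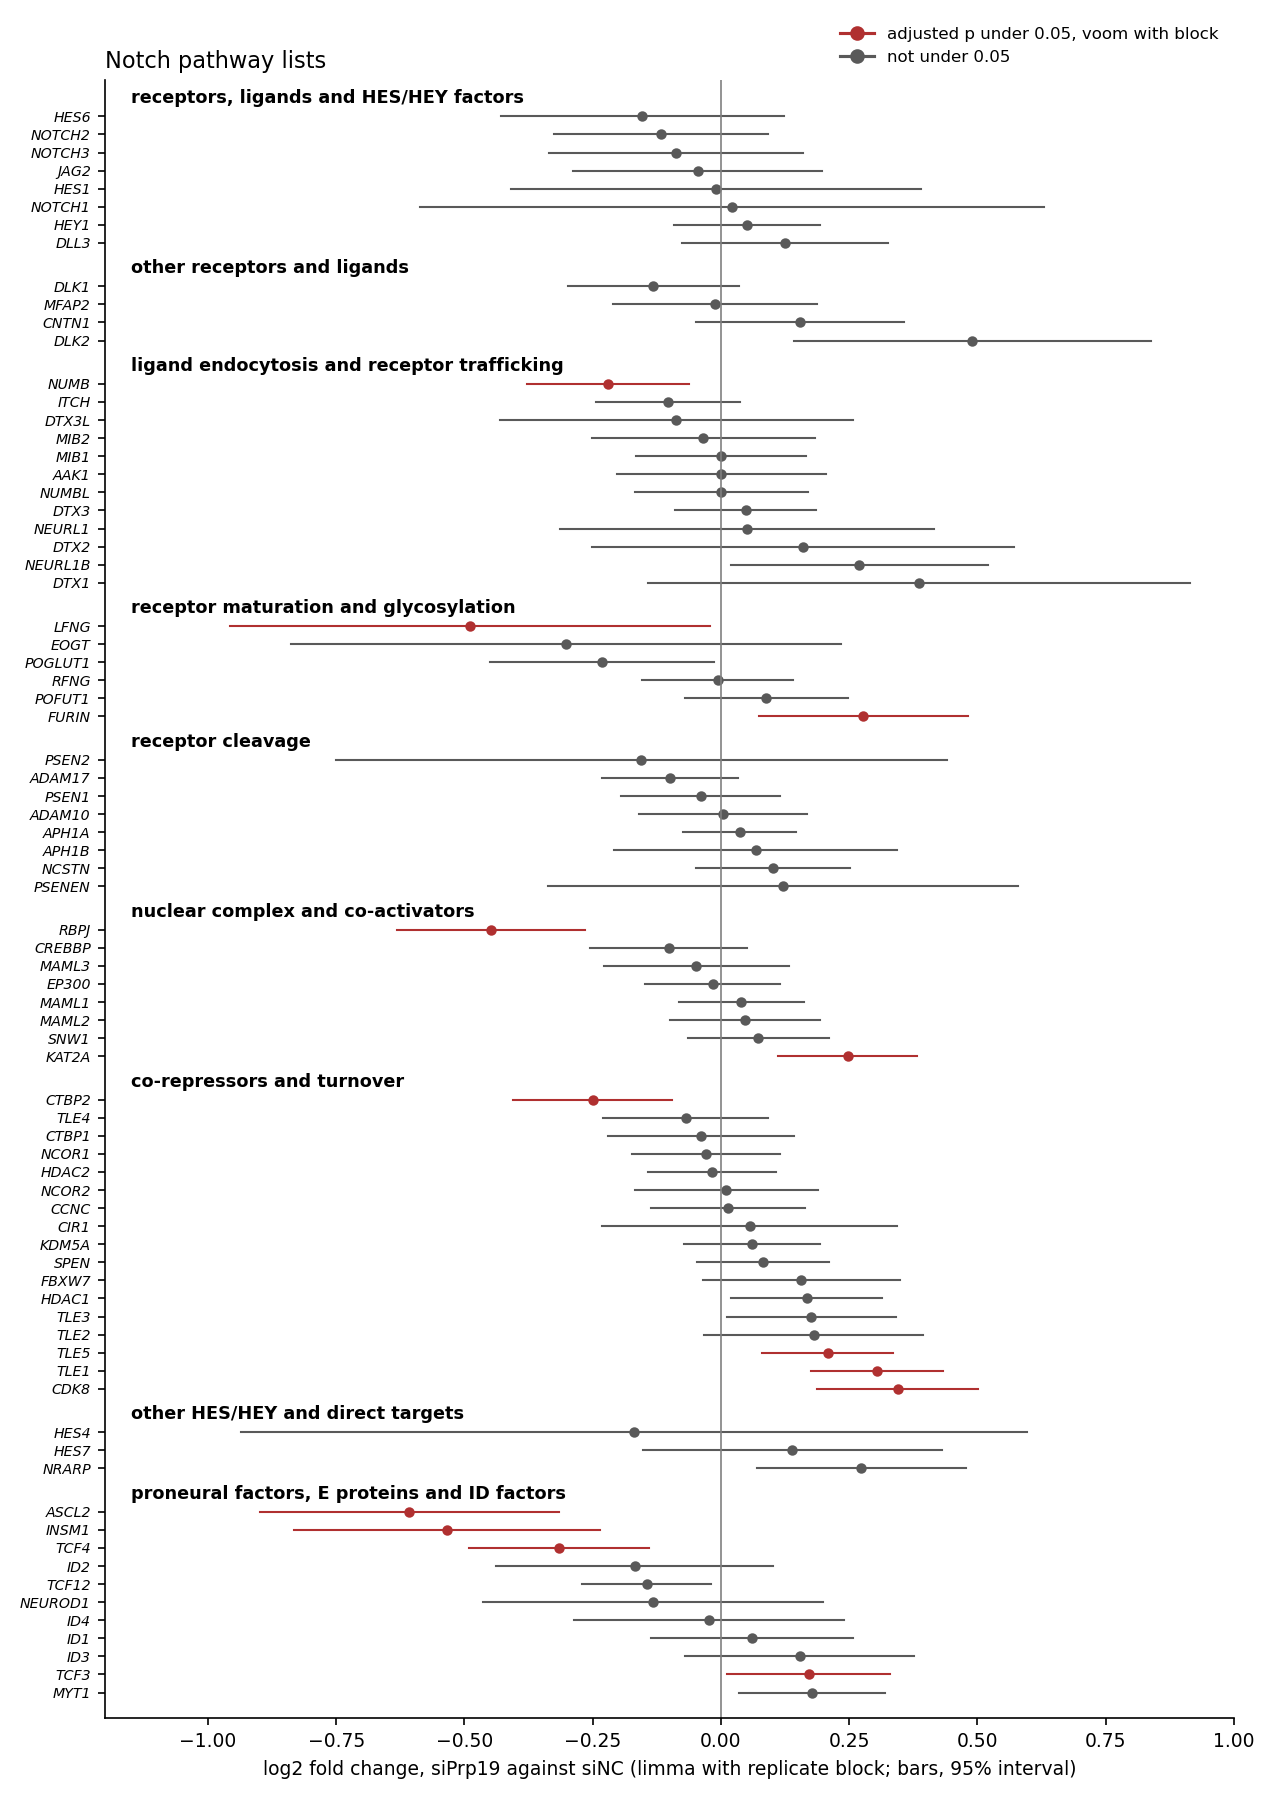
Log2 fold change of siPrp19 against siNC with its 95% interval from limma with the replicate block, for the tested genes of each list; red points have a voom adjusted p under 0.05. The 8 genes in the top list are all grey with intervals that span 0, while RBPJ at −0.45 and INSM1 at −0.53 stand to the left.

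**Figure D4:**
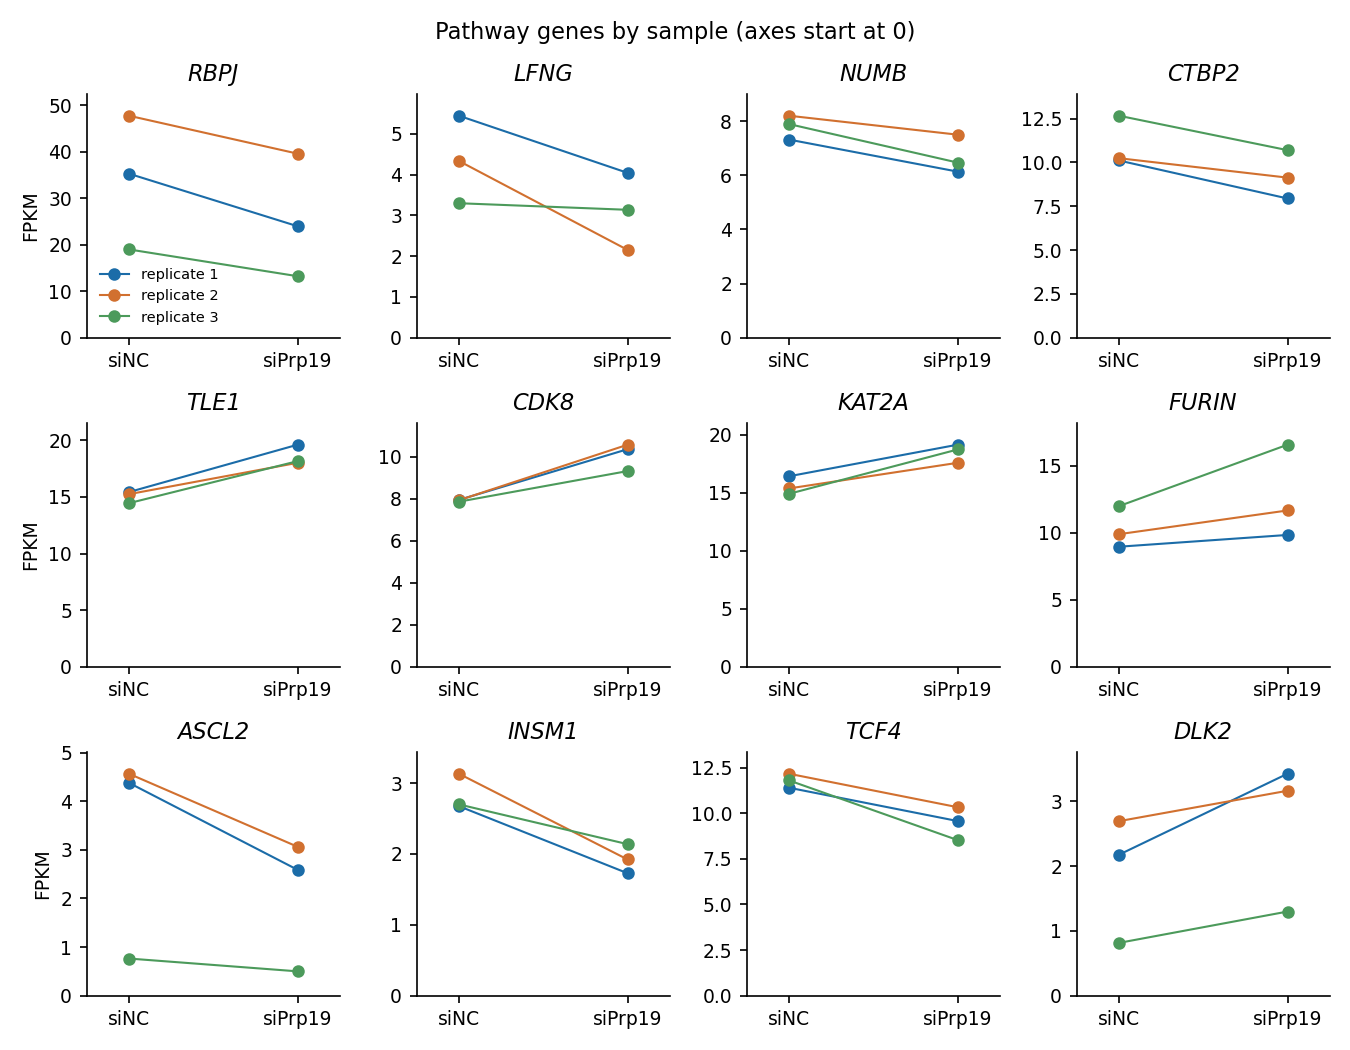
FPKM in each sample, with lines joining siNC and siPrp19 samples of the same replicate number and axes that start at 0, for 12 pathway genes. RBPJ and ASCL2 slope down in all 3 pairs from different starting levels, while the siPrp19 samples of TLE1, CDK8 and KAT2A stand above every siNC sample.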

How the data were processed

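Per the labels, total RNA was taken 72 h after transfection and libraries were made with the NEBNext Ultra RNA kit, which does not mark strand. The authors deposited 1 table of FPKM values per sample. The submitters' processing notes name HISAT2 2.0.5, featureCounts 1.5.0-p3 and build hg38, and the paper names DESeq2 for the authors' own test. Samples of the SK-N-AS line were not used here.

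Of the 58302 identifiers, 58039 were in GENCODE release 29. Whole reads (within 0.02) were recovered in all 6 samples for 95.8% of the 37521 genes not listed at 0 throughout. Among the rest were NOTCH1, JAG1, NUMB and MYT1, so their reads are approximate. Depth was 19058781 to 24181789 reads on genes, and median-of-ratios scale factors were 1.

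FPKM were turned into log2(FPKM + 0.1), and the 14462 genes whose mean reached 1 FPKM went into limma 3.58.1 under R 4.3.3 (lmFit and trended eBayes, no block), with Benjamini-Hochberg adjustment over all of them. A pseudocount shrinks the fold changes of low genes. Same-numbered samples, as the labels number them, deviated from their group means together (mean r 0.529, 0.381 to 0.639 over the 3 pairs), so intervals are given with the block. Further fits were voom on recovered reads with and without the block, other pseudocounts, filters and normalizations, and each replicate left out. The fits were tested on simulated data. Exact tests used scipy 1.17.1, and plots matplotlib 3.10.9. Pathway genes were named where the unadjusted p with the block was under 0.05, or else the 2 largest changes of a list. HES5, HES7, NOTCH4, DLL4, the MAML genes, DLK1, NEUROD1 and the ID genes were chosen after their values were seen. The members and lists were chosen with earlier results of these data known. One gene of the last list is not reported here and is left out of its counts. Members without a promoter entry were DLL1, DLL3 and HEY1.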

Additional observations from a re-analysis of the deposited data

How the results depend on the processing

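The 10 receptors, ligands and HES/HEY factors had no adjusted p under 0.05 in any alternative run on all 6 samples, and NOTCH3 alone had one (0.02959), in voom with the block and without replicate 3. The range over fits with a replicate left out was 0 to 3 of them with an unadjusted p under 0.05. The replicate block, used because of the pairing of same-numbered samples, left 0 genes past an adjusted p under 0.05 (2265 with an unadjusted p under 0.05, against 225 without it). Genes past an adjusted p under 0.05 numbered 124 with the block and a mean of at least 5 FPKM, 1 with eBayes without trend and robust, and 1093 with voom and the block, and 0 to 1363 with a replicate left out (voom with the block gave 280 without replicate 1 and 633 without replicate 2). For the pathway lists the counts were 0 as reported, 1 (RBPJ) with the block and a mean of at least 5 FPKM, 13 with voom and the block, and 0 to 15 with a replicate left out. The fits with voom and a pair left out, and the block with no filter, were chosen after seeing the data.

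Log2 fold changes near 0 turned sign. NOTCH1 was −0.0043 with a pseudocount of 1, −0.018 with quantile normalization and −0.037 with voom and the block, and HES1 was 0.0064, 0.0022 and 0.033 with quantile normalization, voom, and voom with the block. With a replicate left out the ranges were −0.29 to 0.34 for NOTCH1, −0.29 to 0.0063 for NOTCH2, −0.26 to 0.016 for NOTCH3, −0.020 to 0.30 for DLL3, −0.21 to 0.081 for JAG2, −0.25 to 0.18 for HES1, −0.30 to 0.013 for HES6 and −0.043 to 0.16 for HEY1. They were −0.080 to 0.31 for CNTN1, −0.66 to 0.23 for PSEN2, −0.088 to 0.29 for PSENEN, −0.62 to 0.11 for HES4, −1.41 to 0.15 for ASCL2 and −0.025 to 0.38 for MYT1. The causes were not tested. RBPJ ranged from −0.83 to −0.04, always lower. Depth limits DLL1, with 27 to 59 reads a sample, HES4, with 31 to 64, and PSENEN, with 51 to 95. It also limits ASCL2, with 28 reads in siNC and 23 in siPrp19 replicate 3, and DLK2, with 36 in siNC replicate 3. All genes are limited by 3 samples a group.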

Other observations

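DLK1, a Delta-like protein without receptor-activating function that chromaffin and neuroblastoma cells are known to express, was the most abundant of the Delta-family genes examined, and it differed by replicate number. It stood at 166.9, 190.6 and 43.7 FPKM in siNC and at 166.8, 156.3 and 40.6 FPKM in siPrp19 replicates 1 to 3. Replicate 3 was the lowest of its group in either condition, as it was for 5 of the 10 genes (NOTCH1, NOTCH2, NOTCH3, DLL1 and JAG2) and for 27.7% of all tested genes. NOTCH4, by contrast, was at 0.771, 1.03 and 1.14 FPKM with siNC and 0.786, 1.01 and 1.16 FPKM with siPrp19, nearly level within each pair. Its overlap with GPSM3, given above, limits these values too.

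ID1, ID2 and ID3, which block proneural factors by binding their E protein partners, were far above HES1 in level. ID1 was at 141.6, 193.7 and 98.1 FPKM with siNC and 135.8, 190.0 and 118.4 FPKM with siPrp19. ID2 was at 104.3, 187.0 and 89.1 FPKM with siNC and 78.8, 160.2 and 97.1 FPKM with siPrp19, lower in pairs 1 and 2 and higher in pair 3. ID3 was at 73.3, 108.0 and 109.7 FPKM with siNC and 75.7, 109.3 and 144.6 FPKM with siPrp19. None of these was called by limma, where 0% of all tested genes were, and the groups overlapped for each. By voom with the block the adjusted p was 0.6341 for ID1, 0.1057 for ID2 and 0.09961 for ID3. ID2 was among the 15 pathway genes called by voom with the block and without replicate 3, where 9.44% of all genes passed.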
